A study of Mus musculus with 24 samples.

Results

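Interstitial macrophages of the injured mouse lung were split by a fluorescent reporter for Spp1, and the RNA of reporter-positive cells was compared with that of reporter-negative cells. The comparison set 3 libraries of EGFP+ cells against 3 libraries of EGFP- cells, chosen by their labels as 6 of the 24 libraries of the series. All 6 came from Spp1-EGFP knock-in reporter mice that had received bleomycin into the trachea at 3 µg per g of body weight and were killed at day 7. Both groups were sorted from digested lung as CD11b+ SiglecF- cells, the gate used here for interstitial macrophages (IMs), and they differed in the EGFP gate. The series has 8 groups of 3 libraries, and also holds wild-type C57BL/6J IMs, later days and SiglecF+ alveolar macrophages. The zygosity of the reporter allele, the background strain of the reporter mice, and their sex and age are not given in the labels. Nor do the labels say whether libraries came from separate animals or from pools, so the p-values below measure the spread between these libraries.

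Bleomycin injures the alveolar epithelium, and circulating monocytes then enter the lung and become macrophages. Spp1 encodes osteopontin, a secreted phosphoprotein that binds integrins and CD44, and macrophages that make it are known from fibrotic lung in mice and humans. Such cells are often described together with genes for lipid uptake, lysosomal breakdown and matrix remodelling, while recently recruited monocytes carry more transcripts of inflammation and the interferon response.

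The genes of the sort come first, since they check the labels and are no finding. Spp1 stood at 4027, 4705 and 3497 CPM in EGFP+ libraries, against 445, 559.9 and 565 CPM in EGFP- libraries, which is 7.79-fold higher (log2 difference 2.96 ± 0.13 SE, adjusted p = 2.03e-08). Every EGFP+ library lay above every EGFP- library, yet the EGFP- cells still held Spp1 at over 400 CPM. Itgam, which encodes CD11b, averaged 376 ± 27.0 CPM in EGFP+ and 360.0 ± 17.0 CPM in EGFP- IMs, and the groups overlapped (adjusted p = 0.45). Siglecf, whose protein the gate excludes, was low in both groups and averaged 15.3 ± 1.2 CPM in EGFP+ and 25.3 ± 0.849 CPM in EGFP- IMs, 1.65-fold lower in EGFP+ cells (adjusted p = 8.86e-06). CPM is the count of a gene relative to the library's total, scaled by library factors, and values are given as mean ± SD of n = 3 libraries per group unless single libraries are listed. A log2 difference is EGFP+ minus EGFP-, and a gene is called higher or lower where its adjusted p is under 0.05.

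The libraries held between 15158909 and 16121010 counts in EGFP+ cells and between 14049139 and 16818903 in EGFP- cells. Principal component 1 carried 83.1% of the variance of the 2000 most variable genes and separated the groups, with EGFP+ replicate 1 nearest to the EGFP- libraries. Macrophage genes and neutrophil genes were both well expressed. Csf1r, the receptor that macrophages need to survive, averaged 1011 ± 47.1 CPM in EGFP+ and 1069 ± 42.5 CPM in EGFP- IMs, and Fcgr1 averaged 192 ± 16.6 CPM in EGFP+ and 215 ± 6.97 CPM in EGFP- IMs, with no call for either (Fcgr1 had an adjusted p = 0.0423 with a filter of 1 CPM, 0.0446 with all 15 libraries in the fit, 0.0136 without EGFP+ replicate 1 or 0.0407 without EGFP- replicate 1). Csf3r, the receptor for the neutrophil growth factor G-CSF, averaged 516 ± 88.2 CPM in EGFP+ and 1269.9 ± 84.8 CPM in EGFP- IMs, 2.46-fold lower in EGFP+ cells. Of the 12 macrophage core genes tested, 6 were higher, among them Adgre1 (F4/80; log2 difference 0.84) and Mertk (0.86), and 2 were lower, C5ar1 (-0.62) and Cd14 (-0.40). Among all genes tested the shares were 26.4% higher and 26.1% lower. EGFP+ replicate 2 stood apart in Y-linked transcripts, with Ddx3y counted 14, 151 and 10 times in EGFP+ libraries and 4, 3 and 2 times in EGFP- libraries. All 6 libraries held Xist, at 635 to 727 CPM in EGFP+ and 742 to 909 CPM in EGFP- libraries. Xist was called lower (log2 difference -0.23), a call lost at adjusted p = 0.183 without EGFP+ replicate 2 or 0.133 without EGFP- replicate 1.

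Transcripts of other cell types were looked for in the same way. The neutrophil markers, among them S100a8, Cxcr2 and Ly6g, were lower in EGFP+ cells for 12 of the 12 tested, and their summed level was 2245 to 3108 CPM in EGFP+ libraries and 5197 to 6989 CPM in EGFP- libraries. Of 12 conventional dendritic cell markers 7 were lower and none higher, with a summed level of 242 to 282 CPM in EGFP+ libraries and 432 to 448 CPM in EGFP- libraries. Among 8 T cell markers 2 were lower, and among 8 B cell markers no gene was called, although Ighm stood at 230.1, 1176 and 626 CPM in EGFP+ libraries and at 281, 277 and 243 CPM in EGFP- libraries (adjusted p = 0.0223 with all 15 libraries in the fit or 0.025 without EGFP+ replicate 1). The T cell count was 1 without EGFP+ replicate 1, without EGFP- replicate 1 or without EGFP- replicate 2, and the count of B cell markers higher was 5 without EGFP+ replicate 1. Lung epithelial markers summed to 158 to 274 CPM in EGFP+ libraries and 177 to 189.6 CPM in EGFP- libraries, with 1 of 10 higher (3 without EGFP+ replicate 1) and 3 lower. Of 7 NK cell, 5 plasmacytoid dendritic cell and 6 fibroblast markers 2 each were lower and none was higher. Over all genes tested 26.4% were higher and 26.1% lower. The shares lower of T cell (25%), NK cell (28.6%) and epithelial (30%) markers were near that background. Those of fibroblast (33.3%) and plasmacytoid (40%) markers rest on few genes. The plasmacytoid count was 1 without EGFP+ replicate 1, without EGFP+ replicate 3, without EGFP- replicate 2 or without EGFP- replicate 3, and 0 with DESeq2, and the fibroblast count was 1 without EGFP- replicate 1, and 4 with DESeq2. Of 3 platelet and erythroid markers Ppbp (1.21) and Pf4 (1.27) were higher. Epx, which defines eosinophils, had 0 counts in all 6 libraries. In bulk RNA, fewer cells of a type and less RNA per cell cannot be told apart, and the part of these other cells in the results below was not tested. The neutrophil and dendritic cell sums are given again beside some of the gene groups that moved with them.

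Of 14734 genes tested, 3885 were higher in EGFP+ cells, which is 26.4% of them, and 3849 were lower, or 26.1%. At least 2-fold differences were fewer, with 624 genes higher (4.24%) and 784 lower (5.32%). Since about 1 gene in 4 was called in each direction, the lists below are read against those shares and against the median over all genes tested, a log2 difference of 0.0059. The libraries of the groups did not overlap for 59.8% of the genes tested. Genes shown library by library were picked by fold without overlap or, within lists, by smallest p. Their lack of overlap follows from that choice and is no added support. Leaving out EGFP+ replicate 1 gave 3846 genes higher and 3643 lower, and leaving out EGFP+ replicate 2 gave 3587 and 3071. A gene can stand in more than 1 list.

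**Figure D1:**
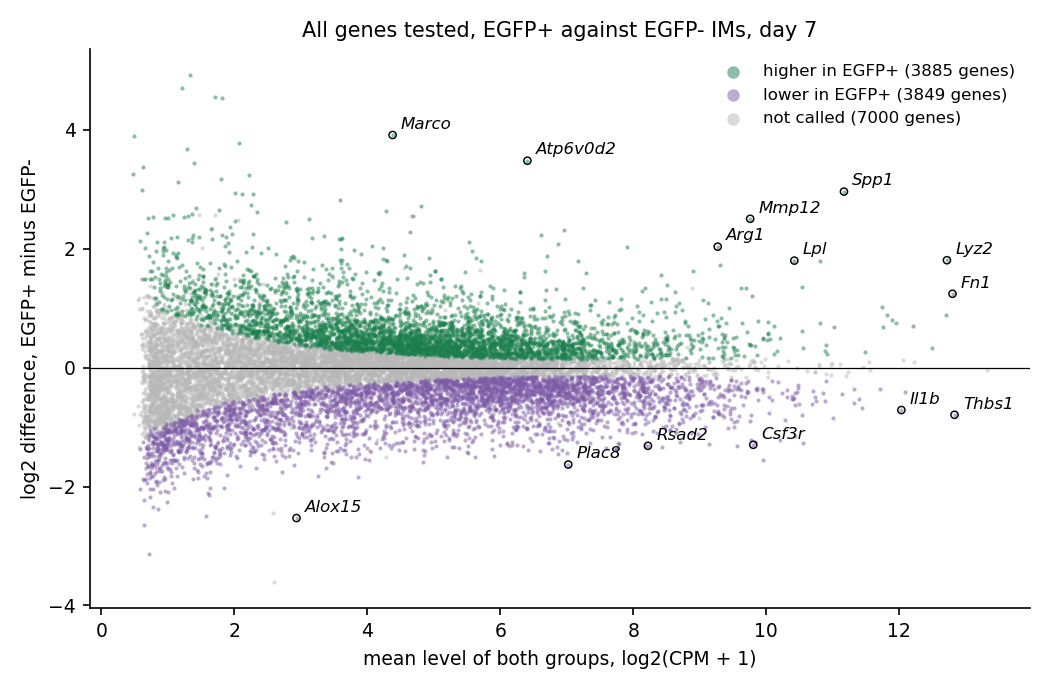
Each point is a gene tested, with its mean level over both groups (log2 of CPM + 1) on the horizontal axis and its log2 difference, EGFP+ minus EGFP-, on the vertical axis. Genes called higher (3885) and lower (3849) at an adjusted p under 0.05 are coloured, and named genes such as Marco at 3.91 and Alox15 at -2.53 lie at the upper and lower edges.

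Marco and Atp6v0d2 had the largest fold differences upward among genes at 10 CPM or more, predicted genes left out, whose groups did not overlap, a condition that was part of the rule for naming them. Marco, a scavenger receptor that binds particles and bacteria, stood at 37.8, 30.9 and 42.9 CPM in EGFP+ libraries and at 2.26, 2.56 and 2.56 CPM in EGFP- libraries, 15.1-fold higher (log2 difference 3.91 ± 0.15, adjusted p = 1.00e-11). Atp6v0d2, a membrane subunit of the vacuolar proton pump found in macrophages and osteoclasts, stood at 117, 152 and 193 CPM in EGFP+ libraries and at 13.6, 13.7 and 14.0 CPM in EGFP- libraries, 11.2-fold higher (adjusted p = 8.07e-05). For both genes the lowest EGFP+ library was several times the highest EGFP- library. Cspg4, the NG2 proteoglycan, measured 18.3, 19.98 and 19.4 CPM in EGFP+ libraries and 2.82, 2.63 and 2.74 CPM in EGFP- libraries (7.03-fold). Cav1, the caveolar coat protein, measured 39.8, 48.2 and 52.6 CPM in EGFP+ libraries and 7.76, 6.89 and 6.82 CPM in EGFP- libraries (6.55-fold). Mmp12, the macrophage elastase, was among the abundant transcripts, at 1351, 1598 and 1461 CPM in EGFP+ libraries and 258, 259 and 259.7 CPM in EGFP- libraries, 5.67-fold higher (log2 difference 2.5 ± 0.07, adjusted p = 3.23e-13). On GRCm38 the deposited table places Marco (ENSMUSG00000026390) at chr1:120474538-120505024, Atp6v0d2 (ENSMUSG00000028238) at chr4:19876841-19922605 and Mmp12 (ENSMUSG00000049723) at chr9:7344381-7369499.

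Further genes named by the same rule covered transport, growth signalling and division. Slc36a2, an amino acid transporter, was 5.89-fold higher, and Akr1b8, an aldo-keto reductase, was 5.66-fold higher. Rnf128, a ubiquitin ligase also called GRAIL, averaged 159.8 ± 2.65 CPM in EGFP+ and 34.1 ± 2.05 CPM in EGFP- IMs (4.69-fold). Ccnb1, the cyclin that drives entry into mitosis, averaged 15.1 ± 2.86 CPM in EGFP+ and 3.23 ± 0.266 CPM in EGFP- IMs (4.66-fold), and Ereg, a ligand of the EGF receptor, averaged 18.5 ± 2.93 CPM in EGFP+ and 4.08 ± 0.789 CPM in EGFP- IMs (4.53-fold). The spans of Zranb3 (6.2-fold), Hebp1 (4.85-fold), Clmp (4.49-fold) and Ereg, introns included, overlap those of other tested genes. Whether their exons overlap was not examined. The strand setting of the counting is not given in the sources used here, so reads of a partner may be included. For Zranb3 a partner, Gm38248, lies on the same strand. Sh3bgrl2 was 4.52-fold higher.

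On the lower side the differences were smaller in size. Alox15, the 12/15-lipoxygenase, stood at 2.19, 2.16 and 1.53 CPM in EGFP+ libraries and at 10.2, 12.7 and 11.1 CPM in EGFP- libraries, 5.78-fold lower (log2 difference -2.53 ± 0.19, adjusted p = 1.52e-08). Enah, which extends actin filaments, measured 4.38, 3.73 and 3.11 CPM in EGFP+ libraries and 14.0, 11.8 and 14.1 CPM in EGFP- libraries (3.55-fold lower). Prg4, lubricin, measured 5.69, 4.06 and 3.6 CPM in EGFP+ libraries and 15.1, 15.6 and 12.6 CPM in EGFP- libraries (3.23-fold lower), and it overlaps the gene Tpr. The deposited table places Alox15 (ENSMUSG00000018924) at chr11:70344152-70352031 and Plac8 (ENSMUSG00000029322) at chr5:100553725-100572245 on GRCm38. Plac8, carried by monocytes that have newly left the blood, measured 67.5, 62.8 and 58.7 CPM in EGFP+ libraries and 162, 218 and 204 CPM in EGFP- libraries (3.1-fold lower, adjusted p = 1.33e-07). Ighv1-81, an immunoglobulin variable segment, measured 5.19, 5.24 and 7.2 CPM in EGFP+ libraries and 21.2, 23.3 and 19.0 CPM in EGFP- libraries (3.59-fold lower). It belongs to a multigene family with near-identical copies, so its count is uncertain, as is that of Ighv1-74 (2.89-fold lower). The call of Ighv1-74 was lost at adjusted p = 0.0866 with no low-count filter, 0.0893 without EGFP+ replicate 1, 0.0984 without EGFP+ replicate 2, 0.0819 without EGFP+ replicate 3, 0.0995 without EGFP- replicate 1 or 0.0611 without EGFP- replicate 3.

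Other genes with large decreases came from several pathways. Il4i1, a secreted amino acid oxidase, was 2.99-fold lower but overlaps other tested genes, and the microRNA gene Mir142b (3.04-fold lower) and its host transcript Mir142hg (2.82-fold lower), which overlap each other, are uncertain for the same reason. Ddr1, a collagen receptor, averaged 4.97 ± 0.998 CPM in EGFP+ and 14.8 ± 2.03 CPM in EGFP- IMs (2.99-fold lower). Slfn4, an interferon-responsive myeloid gene, averaged 505 ± 86.7 CPM in EGFP+ and 1478 ± 96.7 CPM in EGFP- IMs (2.93-fold lower), and Ifnlr1, the interferon lambda receptor chain, averaged 6.52 ± 0.813 CPM in EGFP+ and 18.5 ± 0.519 CPM in EGFP- IMs (2.83-fold lower). Pgf, a placental growth factor of the VEGF family, was 2.93-fold lower, the membrane protease Mmp25 2.85-fold lower and the matrix protein Spon1 2.84-fold lower.

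**Figure D2:**
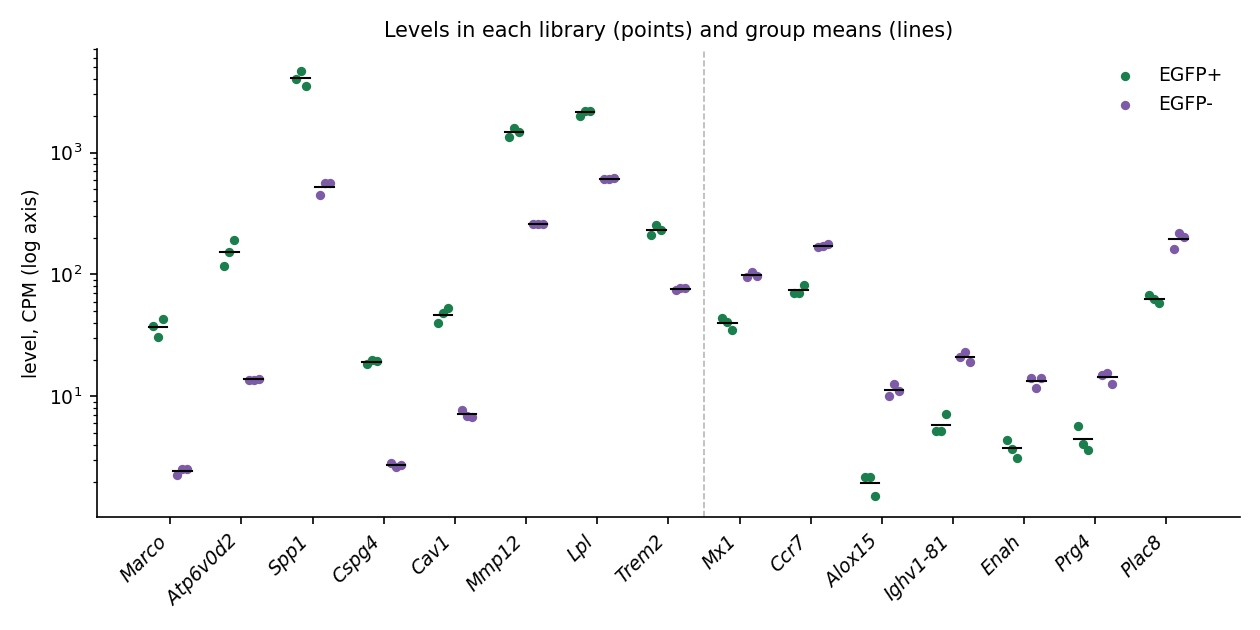
Level in each library (CPM, log axis, vertical) of the 15 genes described library by library, with 3 points for EGFP+ and 3 for EGFP- IMs. For Marco, Mmp12 and Lpl the EGFP+ points lie above the EGFP- points, and for Alox15, Plac8 and Mx1 they lie below. Lines are group means.

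Genes for taking up particles, lipoproteins and dying cells moved mostly upward. Of 12 scavenger receptor genes 8 were higher and 1 was lower (median log2 difference 0.51), and the count lower was 0 without EGFP+ replicate 3 and 2 without EGFP+ replicate 1 or without EGFP- replicate 3. Cd36, which takes up oxidised lipoprotein and fatty acids, averaged 719 ± 27.3 CPM in EGFP+ and 232 ± 10.7 CPM in EGFP- IMs (3.1-fold, adjusted p = 1.12e-11). Mrc1, the mannose receptor, averaged 398 ± 43.4 CPM in EGFP+ and 163 ± 32.7 CPM in EGFP- IMs (2.44-fold), and Colec12, a collectin with scavenger activity, averaged 12.3 ± 2.03 CPM in EGFP+ and 3.87 ± 0.391 CPM in EGFP- IMs (3.17-fold). Cd163, the haemoglobin scavenger of resident macrophages, had a log2 difference of -1.1 and was not called (adjusted p = 0.0141 with DESeq2, 1.41e-04 with no low-count filter, 0.00195 with a replicate block, 0.0406 without EGFP+ replicate 1 or 0.0138 without EGFP- replicate 3; a log2 difference of -0.51 without EGFP- replicate 1). Cxcl16, which is both receptor and chemokine, was lower at -0.23 (adjusted p = 0.0944 with all 15 libraries in the fit or 0.0711 without EGFP+ replicate 3).

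Of 18 dying-cell uptake genes 11 were higher and 3 lower (median 0.66). The bridging proteins that coat phosphatidylserine were among them, with Mfge8 at 138 ± 5.9 CPM in EGFP+ and 63.1 ± 2.2 CPM in EGFP- IMs (2.19-fold) and Pros1 at 46.5 ± 5.88 CPM in EGFP+ and 21.6 ± 1.28 CPM in EGFP- IMs (2.16-fold). The 3 chains of C1q, which opsonise dying cells and open the classical complement pathway, were higher together: C1qa averaged 753 ± 98.7 CPM in EGFP+ and 356 ± 52.1 CPM in EGFP- IMs (2.12-fold), C1qb was 1.99-fold and C1qc 2.12-fold higher. Of the TAM receptor kinases, Mertk (1.81-fold) and Axl (1.37-fold) were higher, and Tyro3 was not called at a log2 difference of 0.20. Adgrb1, a receptor for phosphatidylserine (-1.44), and Itgb3, an integrin chain (-0.67), were lower.

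Most of the Trem list was lower. Trem2, which senses lipids and apolipoproteins, stood at 213, 255 and 230.4 CPM in EGFP+ libraries and at 74.3, 77.6 and 78.1 CPM in EGFP- libraries, 3.03-fold higher (log2 difference 1.6 ± 0.07, adjusted p = 2.59e-11). The EGFP+ libraries lay above the EGFP- libraries without overlap. It was the 1 higher gene of 12 in its list (2 without EGFP- replicate 3), and 9 were lower. Trem1, which amplifies inflammatory signals, averaged 637 ± 78.5 CPM in EGFP+ and 1108 ± 102 CPM in EGFP- IMs, Trem3 had a log2 difference of -1.24 and Treml4 of -1.13. The inhibitory receptors Cd300a (-0.43) and Cd300lf (-0.83) were lower too. Tyrobp (DAP12), the adaptor of Trem1 and Trem2, was not called (584 ± 24.2 CPM in EGFP+ against 618 ± 86.6 CPM in EGFP- IMs; adjusted p = 0.0318 without EGFP- replicate 1), while the kinase Syk downstream of it was lower (-0.49). Neutrophils express Trem1 and Trem3 too, and their markers summed to 2245 to 3108 CPM in EGFP+ libraries and 5197 to 6989 CPM in EGFP- libraries. Their part in the Trem result was not tested.

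Lysosomal breakdown genes stood together on the higher side. All 10 cathepsin and legumain genes tested were higher (median 0.76 on the log2 scale), as were 11 of 14 other hydrolases, with 1 lower. Ctsk, a collagen-degrading cathepsin, averaged 162 ± 50.8 CPM in EGFP+ and 44.2 ± 1.58 CPM in EGFP- IMs (3.68-fold). Ctsd, the aspartic protease of lysosomes, averaged 2780.2 ± 337 CPM in EGFP+ and 805 ± 29.4 CPM in EGFP- IMs (3.46-fold), and Ctsl, a cysteine protease, averaged 964 ± 52.1 CPM in EGFP+ and 292 ± 23.4 CPM in EGFP- IMs (3.3-fold). Among enzymes for other substrates, Lipa, the acid lipase that frees cholesterol from esters, was 2.43-fold higher, Glb1, the beta-galactosidase, 2.35-fold and Smpd1, acid sphingomyelinase, 2.02-fold. Gla was the lower member, at a log2 difference of -0.19, and its call was lost at adjusted p = 0.117 with no low-count filter, 0.129 without EGFP+ replicate 2, 0.102 without EGFP+ replicate 3, 0.0661 without EGFP- replicate 2 or 0.099 without EGFP- replicate 3.

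The proton pump that acidifies these compartments was read by sector. All 8 genes of the cytoplasmic V1 sector tested were higher, at log2 differences from 0.21 (Atp6v1f) to 0.63 (Atp6v1a). The call of Atp6v1f was lost at adjusted p = 0.0837 without EGFP+ replicate 1, 0.0669 without EGFP+ replicate 2 or 0.153 without EGFP- replicate 1. That of Atp6v1g1 was lost at adjusted p = 0.0599 without EGFP+ replicate 2 or 0.0808 without EGFP- replicate 1. Of 9 genes of the membrane V0 sector and its partners 6 were higher, with Atp6v0d2 far above the rest, and Atp6v0c, the proteolipid ring subunit, was lower at -0.99. Of the 4 MiT/TFE factors, which switch on lysosomal genes, Tfec (0.78) and Mitf (0.53) were higher, Tfe3 was lower (-0.36), and Tfeb was not called (-0.08).

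The MiT/TFE factors bind the letters CACGTG, so promoters of these enzymes were searched for it. RefSeq promoter windows of GRCm38.p6, from 250 bases before to 50 after a gene's start, were found for 19 of the 24 enzymes tested, and 7 of them (36.8%) hold CACGTG, against 8.09% of 27025 genes with a window. The motif reads the same on both strands. The windows of Ctsd at chr7:142387778-142388077 on the minus strand and of Ctsl at chr13:64370471-64370770 on the minus strand are shown, as the 2 called members with the largest differences whose window holds it, with CACGTG in capitals. A match describes the letters and is not a measured site. The share covers list members whatever their call, and a link between motif and call was not tested. Gla, the lower member (-0.19), holds CACGTG, and Ctsk (1.88) and Lipa (1.28), which were higher, do not.
Ctsd: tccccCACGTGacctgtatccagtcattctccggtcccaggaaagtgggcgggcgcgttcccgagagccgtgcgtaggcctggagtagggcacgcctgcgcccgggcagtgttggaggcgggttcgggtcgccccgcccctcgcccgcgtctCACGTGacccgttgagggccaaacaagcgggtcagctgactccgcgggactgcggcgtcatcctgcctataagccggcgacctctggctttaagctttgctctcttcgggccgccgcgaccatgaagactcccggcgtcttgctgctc
Ctsl: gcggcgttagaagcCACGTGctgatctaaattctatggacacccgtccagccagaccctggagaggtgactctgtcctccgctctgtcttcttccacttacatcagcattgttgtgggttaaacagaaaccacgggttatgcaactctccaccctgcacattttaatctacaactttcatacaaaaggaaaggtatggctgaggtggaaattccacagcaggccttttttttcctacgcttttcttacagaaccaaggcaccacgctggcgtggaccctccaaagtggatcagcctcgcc

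Lipid handling was read by step. Of 20 genes named for lipid-associated macrophages 19 were higher and none lower (1 lower without EGFP- replicate 1). For fatty acid uptake, 6 of 9 genes were higher and 2 lower. Lpl, lipoprotein lipase, stood at 2012, 2204 and 2176 CPM in EGFP+ libraries and at 609, 609 and 617 CPM in EGFP- libraries, 3.48-fold higher (log2 difference 1.8 ± 0.07, adjusted p = 6.11e-12). The lowest EGFP+ library lay above the highest EGFP- library. The fatty acid binding proteins Fabp4 (2.1-fold) and Fabp5 (2.06-fold) were higher as well, while the transporter Slc27a4 was lower (-0.67).

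For storage and release the 10 genes tested split evenly, 5 higher and 5 lower. The droplet coat genes Plin2 (0.49) and Plin3 (0.86) and the monoglyceride lipase Mgll (1.41) were higher. The last enzymes of triglyceride synthesis, Dgat1 (-0.73) and Dgat2 (-1.06), were lower, as were the lipases Pnpla2 (-0.26; adjusted p = 0.0526 without EGFP+ replicate 2) and Lipe (-0.72) and the lipase inhibitor G0s2 (-1.25; adjusted p = 0.0738 with a replicate block). Of 12 genes listed for oxidation 10 were higher and none lower, with the electron carrier Etfb 2.11-fold higher. The call of Cpt2 was lost at adjusted p = 0.0667 with DESeq2, 0.0561 with a replicate block, 0.218 without EGFP+ replicate 2, 0.0932 without EGFP- replicate 1 or 0.132 without EGFP- replicate 2. That of Acadm was lost at adjusted p = 0.0654 without EGFP+ replicate 3 or 0.0733 without EGFP- replicate 1. The list counts Angptl4, a PPAR target that inhibits Lpl and is not an oxidation enzyme. Angptl4 averaged 17.7 ± 0.926 CPM in EGFP+ and 4.47 ± 1.12 CPM in EGFP- IMs (3.98-fold). Pparg, the nuclear receptor of fat cells and alveolar macrophages, was 2.22-fold higher at 23.8 ± 4.29 CPM in EGFP+ and 10.7 ± 1.42 CPM in EGFP- IMs, and its partner Rxra was 1.79-fold higher. Nr1h3 (LXR alpha) was not called (0.08), and Ppard (-0.40) and Nr1h2 (-0.39) were lower.

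Cholesterol genes were read by direction of flow. Of 8 efflux and lipoprotein genes 6 were higher, including Apoe at 4841 ± 714 CPM in EGFP+ and 2763 ± 142 CPM in EGFP- IMs (1.75-fold), the pumps Abca1 (1.46-fold) and Abcg1 (1.52-fold), and the lysosomal exporter Npc1 (1.43-fold). Of 24 synthesis enzymes and regulators 7 were higher and 5 lower, which is close to the shares over all genes, and the count lower was 3 without EGFP+ replicate 2 or without EGFP- replicate 2. Dhcr7, which makes cholesterol in the last step of synthesis, was 2.53-fold higher, whereas the regulator Srebf2 (-0.31) was lower.

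Mitochondrial genes were higher by modest amounts. Of 30 nuclear genes of the respiratory chain 28 were higher and none lower, with 9 of 11 in complex I, 13 of 13 in complexes II to IV and 6 of 6 in ATP synthase, and a median log2 difference of 0.42. Cox5a, a subunit of cytochrome oxidase, averaged 89.8 ± 6.11 CPM in EGFP+ and 57.9 ± 6.33 CPM in EGFP- IMs (1.55-fold), and Sdhb, the iron-sulfur subunit of succinate dehydrogenase, averaged 91.4 ± 3.12 CPM in EGFP+ and 66.2 ± 6.46 CPM in EGFP- IMs (1.38-fold). Of 11 transcripts encoded in the mitochondrial genome 8 were higher and none lower, and their sum was 9498 to 11566 CPM in EGFP+ libraries and 7859 to 8498 CPM in EGFP- libraries. The call of mt-Atp6 was lost in several settings, with adjusted p up to 0.105 without EGFP- replicate 3. That of mt-Nd2 was lost at adjusted p = 0.0656 with a replicate block or 0.0561 without EGFP+ replicate 2. By contrast mt-Co2 gained a call at adjusted p = 0.0411 with no low-count filter or 0.04 without EGFP- replicate 2.

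Of 15 genes listed for the tricarboxylic acid cycle, with Idh1 and Acod1 counted beside the cycle enzymes, 13 were higher. Idh1, the cytosolic isocitrate dehydrogenase that yields NADPH, had the largest difference of the 15 upward, at 121 ± 5.92 CPM in EGFP+ and 40.1 ± 2.16 CPM in EGFP- IMs (3.01-fold). The 1 lower gene was Acod1, which diverts aconitate to the antimicrobial itaconate and averaged 711 ± 133 CPM in EGFP+ and 1659 ± 127 CPM in EGFP- IMs (2.33-fold lower, adjusted p = 9.44e-06). In glycolysis 11 of 18 genes were higher, among them Pgam1 (0.89), Aldoa (0.61) and Ldha (0.56), while the lactate exporter Slc16a3 (-0.83), the activator Pfkfb3 (-0.45) and the glucose transporter Slc2a1 (-0.25; adjusted p = 0.0538 without EGFP+ replicate 3 or 0.0708 without EGFP- replicate 3) were lower. Gapdh was not called (22.5 ± 2.72 CPM in EGFP+ and 37.96 ± 19.6 CPM in EGFP- IMs), and like other genes with many processed copies its count is uncertain. Of the 8 genes listed for the hypoxia response none was higher and 5 were lower, including Hif1a (-0.28), Egln3 (-1.05) and Ankrd37 (-0.87). This count holds for the list only. The hypoxia-inducible Hilpda, which is not in it, was higher under every alternative fit, at log2 differences from 0.68 to 0.82.

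Antioxidant genes followed no common direction, with 10 of 20 higher and 6 lower. The peroxide-removing enzymes Prdx1 (2.54-fold), Cat (1.88-fold) and Gpx1 (1.63-fold) and the pentose phosphate genes G6pdx, Pgd and Tkt (log2 differences of 0.49, 0.49 and 0.54) were higher. The master regulator Nfe2l2 (NRF2; -0.34), the cystine importer Slc7a11 (-0.54), the glutathione reductase Gsr (-0.68) and the manganese dismutase Sod2 (-0.32) were lower.

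Iron and haem genes split in a similar manner, 7 of 14 higher and 4 lower. Slc48a1, which carries haem out of the phagolysosome, was 2.49-fold higher, and the biliverdin reductases Blvra (2.2-fold) and Blvrb (1.96-fold) and the ferritin receptor Ncoa4 (1.8-fold) were higher. Slc40a1, ferroportin, the exporter of iron from cells, averaged 15.3 ± 2.13 CPM in EGFP+ and 40.02 ± 1.33 CPM in EGFP- IMs and was 2.61-fold lower (adjusted p = 9.20e-09).

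Genes of DNA replication and mitosis were higher. All 16 genes of G2 and mitosis tested were higher (median 1.31 on the log2 scale), and so were 12 of 16 genes of S phase with none lower (median 0.74). Cdk1, the mitotic kinase, averaged 17.3 ± 5.38 CPM in EGFP+ and 4.87 ± 0.61 CPM in EGFP- IMs (3.52-fold), Bub1, of the spindle checkpoint, was 2.89-fold higher and Plk1, a kinase of spindle assembly, 2.59-fold. Mki67 averaged 175 ± 14.0 CPM in EGFP+ and 120.1 ± 7.72 CPM in EGFP- IMs and had a smaller difference (1.46-fold). Rrm2, which makes deoxynucleotides, was 3.01-fold higher, and the helicase subunits Mcm2 (2.06-fold) and Mcm5 (2.07-fold) followed.

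Genes of G1 did not share this direction, with 5 of 11 higher and 4 lower. The E cyclins Ccne1 (1.18) and Ccne2 (0.77) and E2f1 (1.08) were higher. The D cyclins Ccnd1 (-0.35; adjusted p = 0.0532 with all 15 libraries in the fit), Ccnd2 (-0.68) and Ccnd3 (-0.48) were lower, Myc was not called (-0.20), and of the inhibitors Cdkn1a (-0.21), Cdkn1b (-0.60) and Cdkn2d (-0.50) were lower while Cdkn2c was higher (1.07). The call of Cdkn1a was lost at adjusted p = 0.0799 with no low-count filter, 0.133 without EGFP+ replicate 2, 0.149 without EGFP+ replicate 3, 0.0703 without EGFP- replicate 2 or 0.12 without EGFP- replicate 3.

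Mitotic promoters often carry the cell-cycle homology region, whose letters are TTTGAA. Windows were found for 14 of the 16 genes of G2 and mitosis, and 10 of them (71.4%) hold TTTGAA on either strand, against 20.2% of all genes with a window. Ccnb1 (2.22) and Bub1 (1.53) were higher and do not hold it. The share describes a list of mitotic genes, and a link between motif and call was not tested. Those of Cdk1 at chr10:69352863-69353162 on the minus strand and of Plk1 at chr7:122159185-122159484 on the plus strand are given with the motif in capitals.
Cdk1: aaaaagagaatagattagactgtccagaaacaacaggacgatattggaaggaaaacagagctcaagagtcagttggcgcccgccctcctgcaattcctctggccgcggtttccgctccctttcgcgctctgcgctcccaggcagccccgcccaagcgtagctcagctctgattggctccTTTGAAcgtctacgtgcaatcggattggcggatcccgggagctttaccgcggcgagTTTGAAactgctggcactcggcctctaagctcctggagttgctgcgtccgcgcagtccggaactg
Plk1: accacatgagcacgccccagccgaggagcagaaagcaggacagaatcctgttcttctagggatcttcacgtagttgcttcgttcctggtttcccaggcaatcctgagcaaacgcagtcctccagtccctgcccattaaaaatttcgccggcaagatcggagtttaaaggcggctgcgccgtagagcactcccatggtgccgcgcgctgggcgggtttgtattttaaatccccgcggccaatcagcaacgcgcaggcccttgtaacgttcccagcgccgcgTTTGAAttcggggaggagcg

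All 20 proteasome subunits tested were higher, by small amounts, with log2 differences from 0.22 (Psmb2; adjusted p = 0.0539 without EGFP+ replicate 1 or 0.0726 without EGFP- replicate 1) to 0.60 (Psmb5, a catalytic subunit). Ribosomal protein genes, by contrast, were largely not called, with 4 of 24 higher, none lower and a median of 0.11. The count of higher ribosomal genes was 11 without EGFP- replicate 3, 8 with DESeq2 and 12 with no low-count filter. Folding genes were mixed. Of 20 genes of the unfolded protein response 9 were higher and 7 lower (median 0.11), and of 12 heat shock chaperones 2 were higher and 6 lower (median -0.39). In the endoplasmic reticulum the chaperones and oxidoreductases Pdia4 (0.81), Sdf2l1 (0.65), Pdia3 (0.49), Canx (0.41) and Calr (0.40) were higher. Lower members were the sensor Ern1 at -0.46, Ddit3 (CHOP) at -0.38, Atf4 at -0.37 and Xbp1 at -0.31, and Hspa5 (BiP) was not called (0.03).

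Growth factors that act on fibroblasts and epithelium were tested next. Of 17 genes 10 were higher and 4 lower (median 0.65). Igf1, insulin-like growth factor, averaged 76.6 ± 6.36 CPM in EGFP+ and 21.3 ± 1.07 CPM in EGFP- IMs (3.6-fold, adjusted p = 2.91e-11), and Pdgfc, a mitogen for fibroblasts, averaged 18.6 ± 3.2 CPM in EGFP+ and 5.81 ± 1.91 CPM in EGFP- IMs (3.2-fold). Pdgfa was 1.89-fold higher, whereas Pdgfb was not called (0.07). The EGF receptor ligands Areg (1.75-fold) and Hbegf (1.25-fold; adjusted p = 0.0767 with DESeq2, 0.0763 with a replicate block, 0.0686 with all 15 libraries in the fit, 0.0898 without EGFP+ replicate 1, 0.19 without EGFP+ replicate 3 or 0.141 without EGFP- replicate 3) were higher along with Ereg. Tgfb1, the main profibrotic cytokine, was slightly lower at 366 ± 15.5 CPM in EGFP+ against 451 ± 15.2 CPM in EGFP- IMs, and Csf1, the macrophage growth factor, was 2.17-fold lower.

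Matrix genes were more often lower than higher. Of 19 tested, 4 were higher and 7 lower (median -0.70), and Spp1 is 1 of the 4. Fn1, fibronectin, was the abundant exception at 10030.3 ± 506 CPM in EGFP+ and 4238 ± 250.02 CPM in EGFP- IMs (2.37-fold), with Lamc1 (2.52-fold) and Ecm1 (1.24-fold). The fibrillar collagens Col1a1 (2.91 ± 0.767 CPM in EGFP+ and 6.03 ± 4.86 CPM in EGFP- IMs; adjusted p = 0.0331 with DESeq2) and Col3a1 (4.66 ± 2.49 CPM in EGFP+ and 10.1 ± 5.89 CPM in EGFP- IMs), which fibroblasts make, were low in both groups and not called, and Thbs1, thrombospondin, was 1.73-fold lower. Of 12 metalloprotease genes 5 were higher and 4 lower. Mmp13, a collagenase, averaged 27.0 ± 2.05 CPM in EGFP+ and 11.2 ± 2.58 CPM in EGFP- IMs (2.41-fold), and Mmp19 was 1.62-fold higher, while the neutrophil enzymes Mmp8 (-0.96) and Mmp9 (-1.31) were lower. Among inhibitors Timp2 (2.52-fold) was higher and Slpi (-0.92) was lower.

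Clotting genes were mixed, with 6 of 14 higher and 7 lower (4 without EGFP+ replicate 2, without EGFP+ replicate 3 or without EGFP- replicate 3). F7, factor VII, averaged 188 ± 17.0 CPM in EGFP+ and 44.3 ± 2.99 CPM in EGFP- IMs (4.24-fold), and the anticoagulants Tfpi (2.05-fold) and Thbd, thrombomodulin (1.64-fold), were higher. F5 (2.64-fold), F3, tissue factor (1.63-fold), and Plat, tissue plasminogen activator (1.53-fold), were lower. Pdpn, podoplanin, which activates platelets through CLEC-2, was 4.1-fold higher at 385 ± 27.4 CPM in EGFP+ and 93.8 ± 7.36 CPM in EGFP- IMs.

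Arginine genes separated the competing enzymes. Arg1, which turns arginine into ornithine and urea, averaged 991 ± 81.1 CPM in EGFP+ and 242 ± 21.0 CPM in EGFP- IMs (4.1-fold, adjusted p = 1.12e-11), and its importer Slc7a2 was 2.14-fold higher. Nos2, which turns arginine into nitric oxide, was 1.98-fold lower at 17.3 ± 2.31 CPM in EGFP+ and 34.3 ± 3.13 CPM in EGFP- IMs, and the mitochondrial Arg2 was 1.85-fold lower. The polyamine genes were mixed, with Srm higher (0.77) and Sat1 lower (-0.37), and Odc1 was not called (0.03). Other genes used as marks of alternative activation did not follow Arg1 and Mrc1: of 16 tested, 5 were higher and 6 lower. Chil3 was not called (1810.0 ± 643 CPM in EGFP+ against 1725 ± 164 CPM in EGFP- IMs; without EGFP+ replicate 3 it was lower at a log2 difference of -0.25), Retnla was 1.54-fold higher (adjusted p = 0.148 with all 15 libraries in the fit, 0.122 without EGFP+ replicate 3, 0.0898 without EGFP- replicate 1 or 0.0901 without EGFP- replicate 2), and the chemokines Ccl17 (-0.79) and Ccl22 (-1.03) and the receptor Il4ra (-0.46) were lower.

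Genes of blood monocytes were more often lower than higher. Of 15 classical monocyte genes 10 were lower and 3 higher (median -0.70). Their summed level, which includes the abundant Fn1, went the other way. It was 12838 to 14337 CPM in EGFP+ libraries and 8646 to 8816 CPM in EGFP- libraries. The sums of the nonclassical genes overlapped, at 1973 to 2138 CPM in EGFP+ libraries and 2011 to 2126 CPM in EGFP- libraries. Ly6c2 averaged 118 ± 12.2 CPM in EGFP+ and 209 ± 14.3 CPM in EGFP- IMs (1.77-fold lower), and Ccr2, the receptor by which monocytes leave the marrow, was slightly lower at 315 ± 13.9 CPM in EGFP+ against 366 ± 18.9 CPM in EGFP- IMs (adjusted p = 0.0506 with no low-count filter). S100a4 (1.72-fold), Mgst1 (1.72-fold) and Fn1 were the higher members. Of 14 nonclassical monocyte genes 8 were lower and 3 higher, with Treml4 (-1.13) and Pglyrp1 (-1.11) lower and Cd36, Fabp4 and Cx3cr1 (0.57) higher. The call of Cx3cr1, the fractalkine receptor, was lost at adjusted p = 0.0527 with upper-quartile scaling, 0.117 with a replicate block, 0.0556 without EGFP+ replicate 2, 0.105 without EGFP+ replicate 3, 0.117 without EGFP- replicate 2 or 0.0903 without EGFP- replicate 3. Neutrophil markers moved with the lower genes, with sums of 2245 to 3108 CPM in EGFP+ libraries and 5197 to 6989 CPM in EGFP- libraries, and neutrophils also carry some of these transcripts, Pglyrp1 among them. Their part in the monocyte counts was not tested.

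Of 19 genes of resident IMs 12 were higher and 1 lower (median 0.82). Folr2, the folate receptor beta, averaged 6.11 ± 1.85 CPM in EGFP+ and 1.49 ± 1.11 CPM in EGFP- IMs (4.1-fold; a log2 difference of 2.74 without EGFP- replicate 1, against 2.04 with it). Pf4 was 2.41-fold and Cbr2 1.94-fold higher. Pf4 is also a platelet gene, and Ppbp, of platelets, was 2.31-fold higher. The platelet and erythroid markers summed to 44.4 to 52.8 CPM in EGFP+ libraries and 20.04 to 22.7 CPM in EGFP- libraries, and their part in the Pf4 value was not tested. Lyve1 (2.33 ± 0.847 CPM in EGFP+ and 1.32 ± 0.492 CPM in EGFP- IMs) and Timd4 (1.84 ± 0.524 CPM in EGFP+ and 2.36 ± 0.34 CPM in EGFP- IMs), which mark long-lived resident cells, were low in both groups and not called. Ccl12 was the lower member (-0.72), and the count lower was 2 without EGFP+ replicate 1 or without EGFP- replicate 3. Lyve1 had an adjusted p = 0.0257 with no low-count filter, 0.0446 with a replicate block, 0.0306 with all 15 libraries in the fit, 0.0156 without EGFP+ replicate 2 or 0.0279 without EGFP- replicate 1.

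Of 17 alveolar macrophage genes 12 were higher and 1, Siglecf, was lower (median 1.63), and their sum was 4832 to 6396 CPM in EGFP+ libraries and 2928 to 3206 CPM in EGFP- libraries. The count lower was 2 without EGFP+ replicate 3. Car4, a carbonic anhydrase, averaged 17.6 ± 8.31 CPM in EGFP+ and 4.97 ± 1.23 CPM in EGFP- IMs (3.51-fold; adjusted p = 0.0752 without EGFP- replicate 1 or 0.067 without EGFP- replicate 2), and Ear2, a ribonuclease of the eosinophil-associated family, was 3.09-fold higher. Krt79 and Ear1, which mark mature alveolar macrophages, were scarce. Krt79 was counted 24, 41 and 56 times in EGFP+ libraries and 3, 0 and 1 times in EGFP- libraries, and Ear1 42, 58 and 40 times in EGFP+ libraries and 0, 0 and 4 times in EGFP- libraries. As CPM of total counts Krt79 averaged 2.56 ± 0.996 in EGFP+ IMs, against 938 ± 7.66 in the series' EGFP+ alveolar macrophages after PBS. Ear1 averaged 2.98 ± 0.74 in EGFP+ IMs, against 538 ± 30.5 in those alveolar macrophages. The gap was smaller for Marco, at 37.5 ± 6.24 in EGFP+ IMs, against 261 ± 4.62. The part of alveolar macrophages in the sort was not tested beyond these values.

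Among 22 transcription factors 4 were higher and 10 lower. Bhlhe41, which sustains alveolar macrophage renewal, averaged 73.0 ± 5.01 CPM in EGFP+ and 16.9 ± 2.06 CPM in EGFP- IMs (4.32-fold), and Cebpa (0.48), Klf4 (0.50) and Egr2 (0.32) were higher. The lineage factors Maf (-0.17), Irf8 (0.05) and Zeb2 (0.02) were not called, and Spi1 (PU.1) was lower by a small amount (-0.17; adjusted p = 0.0755 with DESeq2, 0.199 with no low-count filter, 0.0772 with a replicate block, 0.178 without EGFP+ replicate 2, 0.206 without EGFP+ replicate 3, 0.12 without EGFP- replicate 2 or 0.382 without EGFP- replicate 3). Hes1 (-1.03), Cebpd (-0.73) and Id3 (-0.71) were lower.

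**Figure D3:**
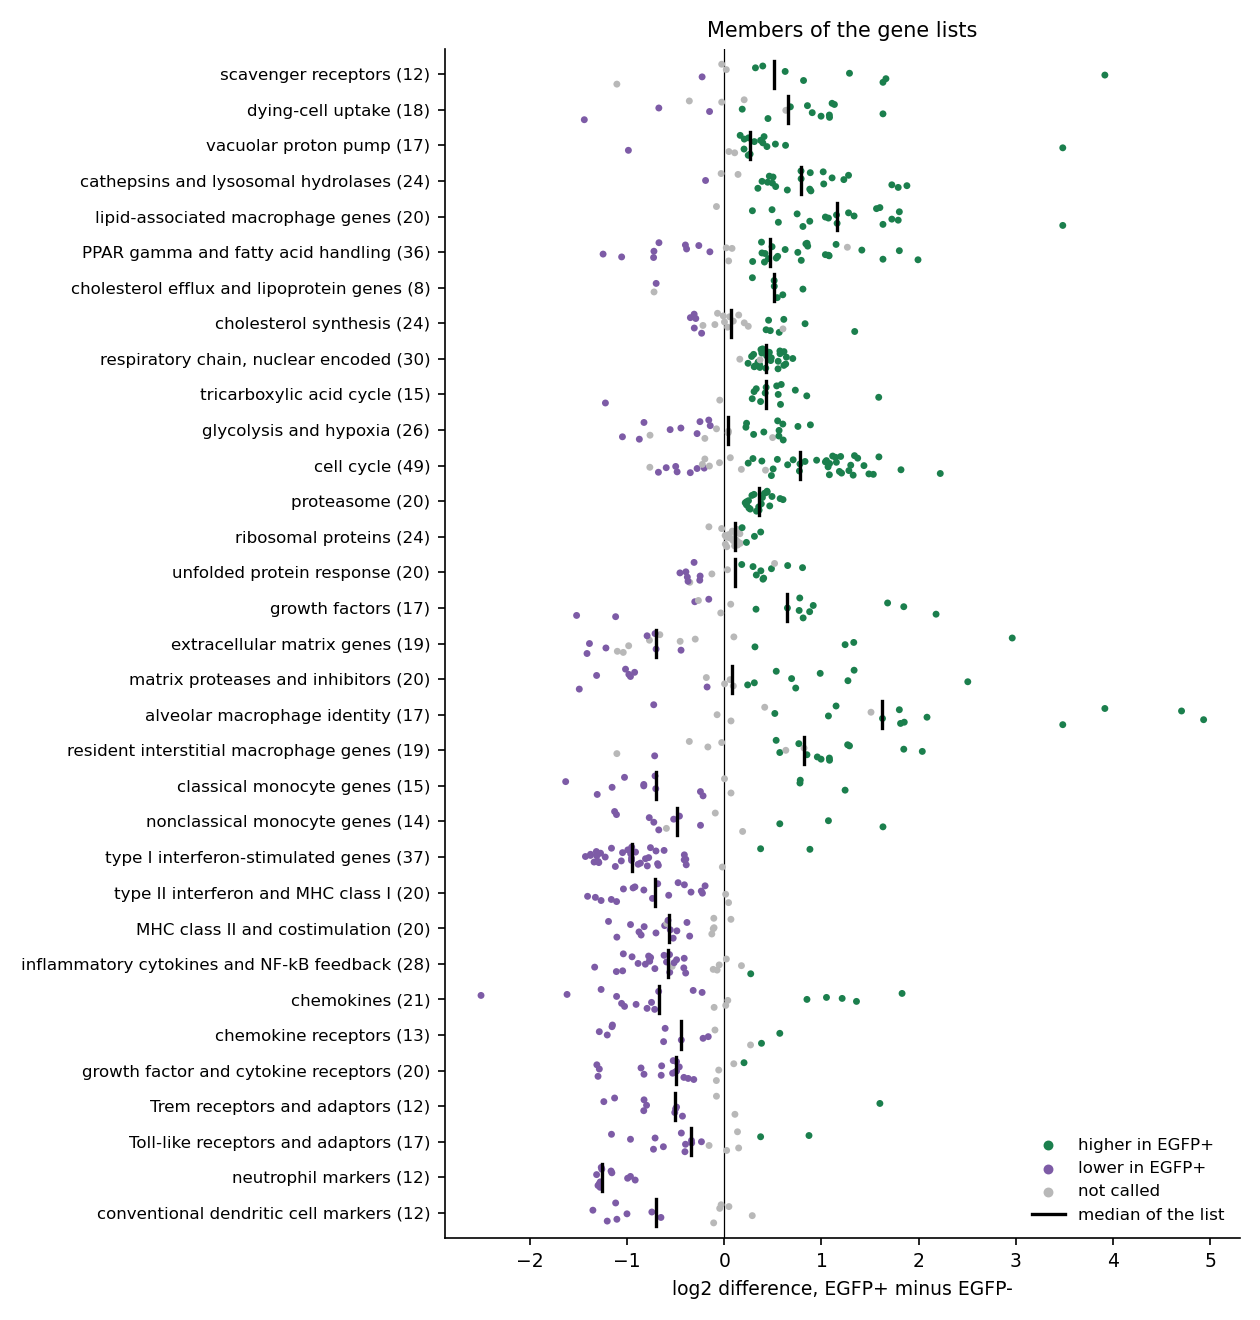
Each point is a member of a gene list with its log2 difference (EGFP+ minus EGFP-) on the horizontal axis, 1 row per list, and colours give the call. Black ticks are list medians, which lie to the right of 0 for cathepsins and the respiratory chain and to the left for interferon and neutrophil genes.

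Interferon genes were lower almost throughout. Of 37 type I interferon-stimulated genes 34 were lower and 2 higher (median -0.95). Mx1, a GTPase that blocks viruses, stood at 44.0, 40.5 and 35.2 CPM in EGFP+ libraries and at 94.5, 105 and 97.7 CPM in EGFP- libraries, 2.48-fold lower (log2 difference -1.31 ± 0.08, adjusted p = 1.93e-09). The highest EGFP+ library lay below the lowest EGFP- library. By role, 20 of 21 antiviral effectors were lower, with Rsad2 (viperin) at 170.5 ± 25.2 CPM in EGFP+ and 424 ± 13.3 CPM in EGFP- IMs (2.49-fold) and Ifit3 at 36.5 ± 6.09 CPM in EGFP+ and 89.6 ± 8.73 CPM in EGFP- IMs (2.46-fold). Bst2 was the effector not called (111 ± 15.3 CPM in EGFP+ against 113 ± 9.84 CPM in EGFP- IMs). All 9 signalling and feedback genes were lower, including Stat2 (-0.99), Irf7 (-0.95), Usp18 (-0.76) and both receptor chains, Ifnar1 (-0.41) and Ifnar2 (-0.40). Neutrophil markers moved the same way, with sums of 2245 to 3108 CPM in EGFP+ libraries and 5197 to 6989 CPM in EGFP- libraries, and their part in the interferon result was not tested.

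The sensors of nucleic acid held the 2 higher members of the list. Ifih1 (MDA5; -0.86), Ddx58 (RIG-I; -0.79), Dhx58 (-0.68), Zbp1 (-0.95) and Tlr9 (-1.16) were lower, but the endosomal RNA sensors Tlr3 (9.2 ± 1.13 CPM in EGFP+ and 5.01 ± 0.891 CPM in EGFP- IMs, 1.84-fold) and Tlr7 (1.3-fold) were higher. Tlr8, another endosomal receptor, was 1.83-fold higher. The surface receptors Tlr1 (-0.40), Tlr2 (-0.23; adjusted p = 0.0529 without EGFP+ replicate 3 or 0.0542 without EGFP- replicate 3), Tlr4 (-0.34), Tlr5 (-0.96) and Tlr6 (-0.71) were lower, as was the adaptor Myd88 (-0.63). A separate list of Toll-like receptors and adaptors does not hold all of Tlr3, Tlr7 and Tlr8. In it, 11 of 17 genes were lower and 2 higher. Neutrophil markers summed to 2245 to 3108 CPM in EGFP+ libraries and 5197 to 6989 CPM in EGFP- libraries. Their part in the Toll-like receptor counts was not tested.

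Interferon-stimulated promoters carry response elements made of GAAA, then 2 bases of any kind, then GAAA again. Windows were found for 28 of the 37 genes, and 14 of them (50%) hold it on either strand, against 3.99% of all genes with a window. The share covers list members whatever their call, and a link between motif and call was not tested. Bst2, not called, holds the motif, and Isg20 (-1.43) and Ifit2 (-1.34), which were lower, do not. The windows of Rsad2 at chr12:26456403-26456702 on the minus strand and of Ifit3 at chr19:34583279-34583578 on the plus strand are printed with the motif in capitals, which reads TTTC, 2 bases, TTTC where it lies on the other strand. TTTGAA can share letters with this motif, and each window is marked for its own motif. Ifit3 has a close copy, Ifit3b (log2 difference -1.06), and reads can be split between them.
Rsad2: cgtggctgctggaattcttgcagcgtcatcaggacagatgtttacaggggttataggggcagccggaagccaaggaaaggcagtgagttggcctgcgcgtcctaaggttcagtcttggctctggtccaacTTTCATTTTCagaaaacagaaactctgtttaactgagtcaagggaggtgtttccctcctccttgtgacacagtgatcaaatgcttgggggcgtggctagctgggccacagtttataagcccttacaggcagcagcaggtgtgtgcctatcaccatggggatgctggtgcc
Ifit3: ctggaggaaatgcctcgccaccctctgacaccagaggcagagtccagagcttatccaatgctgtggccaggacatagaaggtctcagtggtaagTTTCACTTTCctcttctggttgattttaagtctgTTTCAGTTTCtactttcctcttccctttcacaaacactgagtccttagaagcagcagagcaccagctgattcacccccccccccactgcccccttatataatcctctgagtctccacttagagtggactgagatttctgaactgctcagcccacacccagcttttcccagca

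The response to interferon gamma and the loading of MHC class I moved likewise. Of 20 genes 18 were lower and none higher (median -0.71). Gbp5, a guanylate-binding protein that attacks vacuoles, averaged 52.4 ± 11.05 CPM in EGFP+ and 139 ± 4.66 CPM in EGFP- IMs (2.65-fold lower), and the regulator Nlrc5 (-0.92) and the peptide pump Tap1 (-0.68) were lower. Of the class I molecules themselves, H2-D1 (0.01) and B2m (0.04) were not called and H2-K1 was lower at -0.22 (adjusted p = 0.0666 without EGFP+ replicate 3, 0.0566 without EGFP- replicate 2 or 0.0874 without EGFP- replicate 3).

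For MHC class II, 7 of 10 presentation genes and 7 of 10 costimulation and checkpoint genes were lower, and none was higher. H2-Ab1 averaged 1526 ± 69.1 CPM in EGFP+ and 2241 ± 60.5 CPM in EGFP- IMs (1.47-fold lower), and Ciita, the master activator of class II, was 1.84-fold lower. Cd40 (-1.1), Cd86 (-0.70), Icosl (-1.19) and Cd274 (PD-L1; -0.53) were lower. Dendritic cell markers moved the same way, with sums of 242 to 282 CPM in EGFP+ libraries and 432 to 448 CPM in EGFP- libraries. Ccr7, which guides mature dendritic cells to lymph nodes, stood at 70.9, 70.5 and 82.4 CPM in EGFP+ libraries and at 168, 172 and 176 CPM in EGFP- libraries, 2.3-fold lower (adjusted p = 8.22e-10). Its groups did not overlap. Xcr1 (6.92 ± 0.879 CPM in EGFP+ and 7.08 ± 0.121 CPM in EGFP- IMs) and Clec9a (6.03 ± 1.11 CPM in EGFP+ and 4.94 ± 0.667 CPM in EGFP- IMs), which define type 1 dendritic cells, were low in both groups and not called. The part of dendritic cells in the class II result was not tested.

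Inflammatory cytokine and NF-kB genes were lower for 21 of 28 members, with 1 higher (2 without EGFP+ replicate 2 or without EGFP- replicate 3). Of 15 NF-kB factors and feedback genes 14 were lower, among them Nfkb1 (-0.81), Relb (-0.95), Nfkbia (-0.52) and Traf1 (-1.04), and Casp1, of the inflammasome, was higher (0.27). The cytokines themselves were less uniform, with 7 of 13 lower. Il1b averaged 3171 ± 273 CPM in EGFP+ and 5199.5 ± 533 CPM in EGFP- IMs (1.64-fold lower) and Tnf averaged 309.8 ± 39.0 CPM in EGFP+ and 531 ± 53.9 CPM in EGFP- IMs (1.71-fold lower), whereas Il6 (0.18; adjusted p = 0.022 with no low-count filter, 0.0471 without EGFP+ replicate 2 or 0.0258 without EGFP- replicate 3), Il1a (-0.11; adjusted p = 0.0177 without EGFP- replicate 1) and Osm (0.02) were not called. The neutrophil markers moved with these genes (sums of 2245 to 3108 CPM in EGFP+ libraries and 5197 to 6989 CPM in EGFP- libraries), as did 12 of 18 immediate early genes and 6 of 12 heat shock genes that tissue digestion can induce. The immediate early genes summed to 9839.8 to 10415 CPM in EGFP+ libraries and 11544 to 12134 CPM in EGFP- libraries. Their part in the result was not tested.

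Of 12 CC chemokines 3 were higher, a share near the background, and 6 lower, and of 9 CXC chemokines 2 were higher and 7 lower. Ccl6 (2126 ± 177 CPM in EGFP+ and 829 ± 71.6 CPM in EGFP- IMs, 2.57-fold) and Ccl9 (1225 ± 92.6 CPM in EGFP+ and 529 ± 25.9 CPM in EGFP- IMs, 2.32-fold) were higher with Ccl8 (1.8-fold; adjusted p = 0.0844 with DESeq2, 0.0996 without EGFP+ replicate 1, 0.152 without EGFP+ replicate 2, 0.056 without EGFP- replicate 2 or 0.155 without EGFP- replicate 3). Ccl3 (1.87-fold), Ccl4 (2.08-fold) and Ccl5 (1.68-fold) were lower, and Ccl2, which draws monocytes, was not called (143 ± 16.8 CPM in EGFP+ against 154 ± 20.6 CPM in EGFP- IMs). The interferon-induced ligands of CXCR3, namely Cxcl9 (2.41-fold), Cxcl10 (2.15-fold) and Cxcl11 (5.66-fold; a log2 difference of -3.12 without EGFP+ replicate 1, against -2.5 with it), were lower, as was the B cell attractant Cxcl13 (3.07-fold). The log2 difference of Cxcl13 was -1.62, and -2.63 without EGFP+ replicate 3, and its call was lost at adjusted p = 0.0829 with a replicate block, 0.0694 with all 15 libraries in the fit, 0.116 without EGFP+ replicate 1, 0.0576 without EGFP+ replicate 2, 0.119 without EGFP- replicate 1 or 0.0989 without EGFP- replicate 2. Cxcl14 (27.8 ± 2.35 CPM in EGFP+ and 7.86 ± 1.17 CPM in EGFP- IMs, 3.55-fold) and the neutrophil attractant Cxcl1 (2.07-fold) were higher.

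Chemoattractant and cytokine receptor genes were more often lower than higher. Of 13 chemoattractant receptors 9 were lower. The 2 higher were Cx3cr1 (50.8 ± 9.05 CPM in EGFP+ and 34.3 ± 7.47 CPM in EGFP- IMs; count higher of the list 1 without EGFP+ replicate 2, without EGFP+ replicate 3, without EGFP- replicate 2 or without EGFP- replicate 3) and C3ar1 (0.38; adjusted p = 0.053 with all 15 libraries in the fit). Fpr1 (2.23-fold) and Fpr2 (2.22-fold), the formyl peptide receptors of phagocytes, and Cxcr4 (1.52-fold) were lower. Neutrophils carry the formyl peptide receptors and Cxcr2 (log2 difference -1.28) as well. Of 20 growth factor and cytokine receptors 16 were lower and 1, Tgfbr2 (0.20), was higher, a call lost at adjusted p = 0.0529 with a replicate block, 0.111 without EGFP+ replicate 3, 0.0817 without EGFP- replicate 2 or 0.0784 without EGFP- replicate 3. Il10ra (1.77-fold), Il6ra (1.56-fold), Il1r2, a decoy for interleukin 1 (2.44-fold), and Il1rl1, the receptor for interleukin 33 (1.81-fold), were lower. Csf1r was not called, and the GM-CSF receptor chains Csf2ra (-0.31) and Csf2rb (-0.37) were lower by small amounts. Neutrophil markers summed to 2245 to 3108 CPM in EGFP+ libraries and 5197 to 6989 CPM in EGFP- libraries. Their part in the receptor counts was not tested.

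The receptors for osteopontin itself were mixed. Of 8 tested 3 were higher, namely Itgb5 (1.71-fold), Itgb1 (1.33-fold) and Itgav (1.14-fold), which pair as alpha-v integrins. Itgb3 (1.59-fold), Itga5 (1.4-fold), Itga9 (1.34-fold), Itga4 (1.2-fold) and Cd44 (1442 ± 69.1 CPM in EGFP+ against 1886 ± 34.9 CPM in EGFP- IMs, 1.31-fold) were lower. Itgav had an adjusted p = 0.0807 without EGFP- replicate 3, Itga4 an adjusted p = 0.0613 without EGFP+ replicate 2, and Itga9 an adjusted p = 0.13 with DESeq2, 0.113 with no low-count filter, 0.058 with all 15 libraries in the fit, 0.251 without EGFP+ replicate 2, 0.0644 without EGFP+ replicate 3, 0.0642 without EGFP- replicate 1, 0.089 without EGFP- replicate 2 or 0.143 without EGFP- replicate 3. The count of receptors lower was 3 without EGFP+ replicate 2.

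Levels in the other day 7 groups of the same table are given for description. As CPM of total counts, Spp1 averaged 4103 ± 597 in EGFP+ IMs, 518 ± 59.5 in EGFP- IMs, 3437 ± 271 in wild-type IMs after bleomycin and 91.3 ± 2.78 in wild-type IMs after PBS. Arg1 averaged 997 ± 72.5 in EGFP+ IMs, 239 ± 16.8 in EGFP- IMs, 493 ± 47.4 in wild-type bleomycin IMs and 1.78 ± 0.65 in wild-type PBS IMs. So for both genes the EGFP- cells still lay above the wild-type PBS cells, which differ from them in mouse line as well as treatment. Rsad2 averaged 171 ± 23.7 in EGFP+ IMs and 420.0 ± 13.6 in EGFP- IMs, and both stood above wild-type IMs after bleomycin (74.0 ± 1.59) and after PBS (77.3 ± 2.69). Cd36 averaged 724 ± 33.5 in EGFP+ IMs, 229 ± 6.87 in EGFP- IMs, 191 ± 4.26 in wild-type bleomycin IMs and 511 ± 14.5 in wild-type PBS IMs. Marco averaged 37.5 ± 6.24 in EGFP+ IMs and 2.43 ± 0.134 in EGFP- IMs, against 261 ± 4.62 in EGFP+ alveolar macrophages after PBS. For Rsad2 and Cd36 the wild-type bleomycin IMs, which were not split by EGFP, lay below both reporter groups of IMs. These levels are a description, with no test between reporter and wild-type mice.

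**Figure D4:**
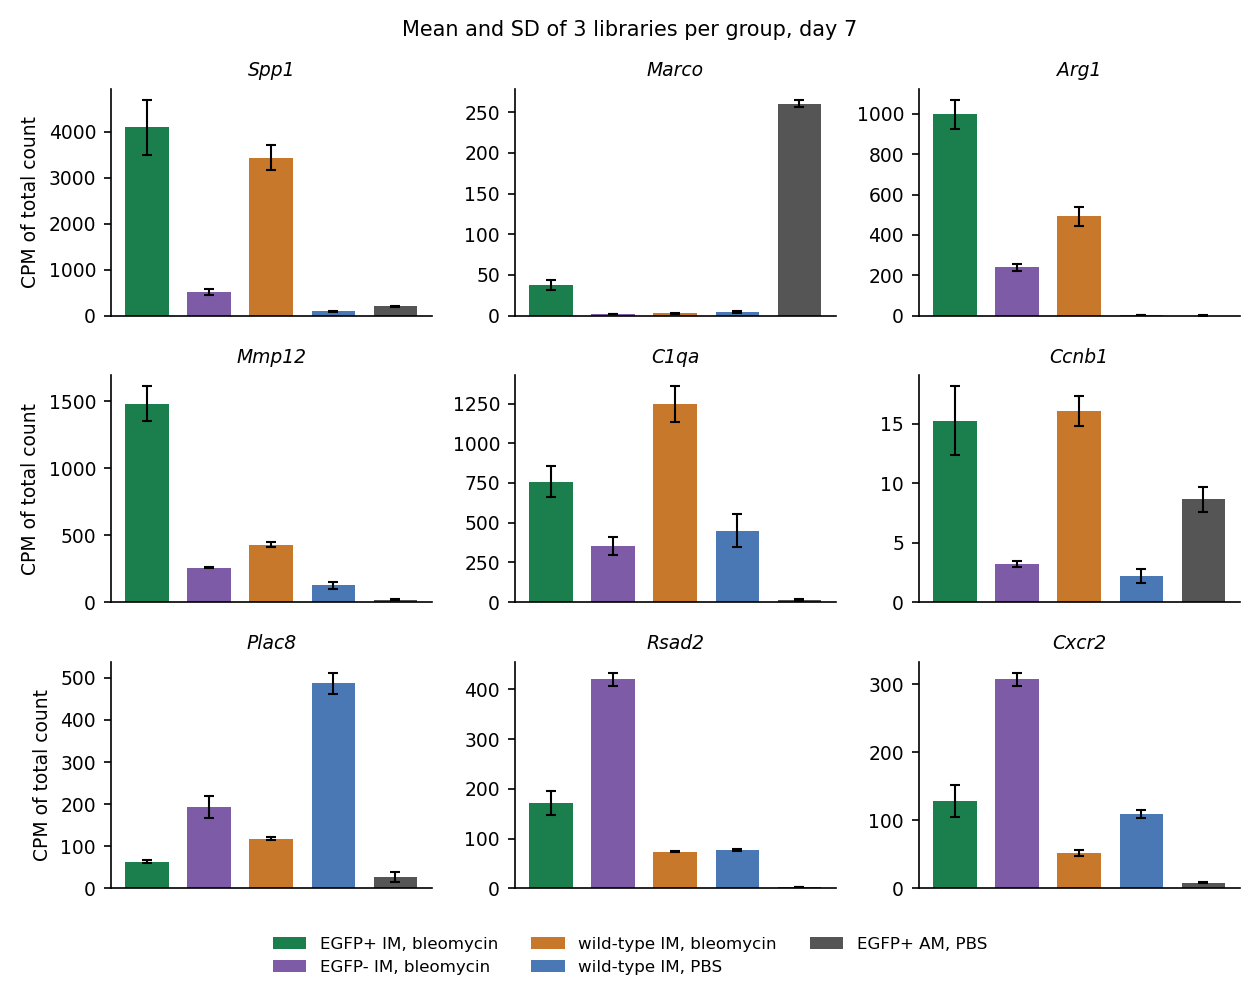
Level of 9 genes (CPM of total counts, mean ± SD of 3 libraries, 1 panel per gene) in 5 groups at day 7. Arg1 is at 997 in EGFP+ and 239 in EGFP- IMs, and Rsad2 is at 171 in EGFP+ and 420 in EGFP- IMs.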

How the data were processed

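Lung macrophages were sorted from bleomycin-treated Spp1-EGFP reporter mice, and poly(A) RNA was sequenced. The authors deposited raw counts per gene. Per the submitters' processing notes, FastQC 0.11.5, Trimmomatic 0.38, HISAT2 2.1.0, SAMtools and featureCounts 1.6.3 were used with GRCm38. The annotation release and strand setting are not given in the sources used here. The table has 15 labelled libraries, and 3 count columns matching no sample were not used.

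The 6 libraries were fitted alone in R 4.3.3 with edgeR 4.0.16 (filterByExpr, TMM, robust quasi-likelihood F-test, 2-sided), with Benjamini-Hochberg adjustment over all 14734 genes tested. SE is the absolute log2 difference divided by the square root of F. On data simulated for this comparison over 14527 genes, 67.2% of genes changed 1.5-fold, 83.6% changed 2-fold and 98.5% changed 4-fold were recovered, with 16 false calls. Only 67, 67 and 66 genes were changed by these folds, all above 1 CPM, while 7734 genes were called in the data. Recovery and false calls depend on the share of genes changed, so these values hold for the simulation only. Replicates of a group differed beyond counting noise, so none was counted as a duplicate.

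The libraries and the 60 gene lists were chosen with earlier results of these data known. Genes named are Spp1, Siglecf, Itgam, the 15 largest called differences each way at 10 CPM or more without overlap (predicted genes left out), up to 6 called members of each list each way by p, and further members to account for a list; some members are not reported here. Alternatives were DESeq2 1.42.0, other scalings and filters, a replicate block, a fit of 15 libraries and leaving out each library.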

Additional observations from a re-analysis of the deposited data

How the results depend on the processing

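The counts of genes called kept within 1.5 times under all 13 alternatives. DESeq2 called 3505 genes higher and 3193 lower, and the fit without a low-count filter 4440 and 3454. Leaving out 1 library gave 3470 to 3846 genes higher, 3071 to 3643 lower, 619 to 778 higher at least 2-fold and 623 to 889 lower at least 2-fold. Replicate numbers are shared by the groups, but same-numbered libraries did not deviate together (r of -0.044, 0.037 and -0.042). With 3 libraries per group this cannot show whether they came from the same animals or pools. With a replicate block 3775 genes were higher and 3708 lower. Under each setting 83.6% to 99.5% of the calls were shared, and no gene was called in opposite directions. Of 677 named genes and list members called, 77 lost their call in at least 1 setting, and of 215 not called 65 gained one. Chil3, not called, was called lower without EGFP+ replicate 3, and its log2 difference ran from -0.25 to 0.25 with 1 library left out. The log2 difference of Spp1 stayed between 2.86 and 3.07. With 3 libraries per group and few genes changed, genes changed 1.5-fold were recovered less often in simulation (67.2%) than genes changed 4-fold (98.5%).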

Other observations

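Non-coding transcripts leaned to the lower side. Of 1382 long non-coding genes tested 156 were higher in EGFP+ cells and 436 lower (median log2 difference -0.23), against 3630 higher and 3135 lower of 12127 protein-coding genes (median 0.04). The strand setting of the counting is not given in the sources used here, so reads of neighbouring coding genes cannot be told apart from those of overlapping non-coding genes.

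Of 16 prostaglandin and leukotriene genes 8 were higher and 5 lower, and the count lower was 3 without EGFP+ replicate 3. The prostaglandin D and thromboxane synthases Hpgds (log2 difference 0.57) and Tbxas1 (0.91), Ptgs1 (0.41) and the leukotriene C4 synthase Ltc4s (0.91) were higher, while Ptgs2 (-0.41) was lower. Of the prostaglandin E synthases Ptges2 was higher (0.67) and Ptges lower (-0.41; adjusted p = 0.0654 with DESeq2, 0.114 without EGFP+ replicate 2, 0.134 without EGFP+ replicate 3 or 0.195 without EGFP- replicate 3). In the complement list C1ra (1.6) and the inhibitor Cd59a (1.17; adjusted p = 0.121 with DESeq2, 0.0531 without EGFP+ replicate 1, 0.117 without EGFP+ replicate 2, 0.0725 without EGFP+ replicate 3, 0.134 without EGFP- replicate 1 or 0.12 without EGFP- replicate 3) were higher with the C1q chains, and C3 (-0.72) and C4b (-1.22) were lower. Of 20 adhesion genes 9 were higher and 10 lower, with Itga6 (1.0), Itgb2 (0.61) and the tetraspanin Cd81 (0.75) higher and Icam1 (-1.02), Vcam1 (-0.85; adjusted p = 0.0765 without EGFP+ replicate 2) and Selplg (-0.48) lower. Among C-type lectins the mincle receptor Clec4e (-0.80) and Clec4d (-0.65) were lower, and Clec4a2 (0.81), Clec4n (0.46) and Cd302 (1.11) were higher.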
